A study of Homo sapiens with 6 samples.

Results

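Tumour necrosis factor (TNF) receptors, the TRAF adaptors that bind them and the NF-kB transcription factors that they control were followed as 51 named genes in a human cell line. A gene was measured by the probe sets whose platform annotation gives exactly 1 symbol equal to its name, and the mean of these probe sets stood for it. Of the 51 genes, 48 were measured, out of 18132 genes in all, with 150 probe sets. TRAF2, RIPK1 and SOD2 were not analysed here. The members were sorted by role into 3 ligands, 11 receptors, 11 adaptors and death complex proteins, 6 kinases or kinase subunits, 5 NF-kB subunits, 9 IkB proteins and feedback inhibitors and 3 further target genes. They were listed with results of the same comparison known, so which of them differ, and by how much, is given below as a description of the list and supports nothing beyond it.

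The samples carry the label TPC-1, a line from a human papillary thyroid carcinoma, and each group has 3 samples with 1 Affymetrix array per sample. The control group is labelled with a control shRNA (genotype "control") and the other with an shRNA against FAM60A (genotype "FAM60A1 knockdown"), both delivered by lentivirus, so the controls also carry a vector. The labels do not say how many shRNA sequences were used, when RNA was taken or whether samples of a group came from separate cultures, so the spread between arrays can be technical. The labels' extraction protocol names DLD1, a colorectal cancer line, in place of TPC-1.

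Signalling through this family starts when a ligand clusters its receptor at the cell surface. TRADD and TRAF proteins then gather at the receptor with ubiquitin ligases such as BIRC2, and the ubiquitin chains bring in the IkB kinase, which marks IkB proteins for destruction and frees NF-kB dimers to enter the nucleus. NF-kB induces genes of inflammation and survival and, among them, its own inhibitors, while a second complex of FADD and CASP8 can turn the same receptors towards cell death. NF-kB signalling is known to be active in thyroid carcinoma cells.

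SINHCAF, which the annotation lists in place of the older name FAM60A, belongs to the SIN3-HDAC co-repressor, and its signal ran against the labels. Its log2 value relative to the median of the 6 arrays was -0.58, -0.66 and -0.68 in the arrays labelled control shRNA and 0.63, 0.57 and 0.60 in those labelled FAM60A shRNA. The targeted gene was thus 2.36-fold higher where it should be lower (limma, adjusted p = 1.08e-06; two-sided exact permutation test, p = 0.1, the smallest that 3 against 3 arrays allow). Whether the labels were exchanged was not tested. With exchanged labels every direction given below would turn. Groups are therefore called by their labels throughout, and "rose" or "fell" means higher or lower in the arrays labelled FAM60A shRNA at an adjusted p under 0.05 over all genes.

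Of 9 thyroid markers, 0 rose and HHEX fell, and 1 of their 28 probe sets had a level of 8 or more before centring. Of 10 intestinal markers, 5 rose and 1 fell. Of their 18 probe sets, 4 had that level, in CDX2, CDH17 and KRT20, and 8 had a level of 2 to 4. Every probe set had a level of 2 to 4 in 4 markers, VIL1, FABP1, LGALS4 and MUC2, of which LGALS4 and MUC2 rose. The mean of the intestinal list per array lay between -0.20 and -0.15 in the control label and between 0.16 and 0.18 in the FAM60A label. Of 9 leukocyte markers, 2 rose and 0 fell, and of 8 endothelial markers 1 rose and 0 fell. Among all genes 19.8% rose and 25.0% fell. The difference between 3' and 5' control probe sets was taken from values centred on each probe set's median over the arrays. It therefore compares the arrays with each other and cannot show how intact the RNA was. For GAPDH this difference spanned -0.01 to 0.02 in the control label and -0.02 to 0.01 in the other. For ACTB it spanned -0.01 to 0.05 in the control label and -0.02 to -0.01 in the other, ranges that barely overlap. The part of RNA ends in the results was not tested. The part of the intestinal markers in the results below was not tested. In RNA from bulk cells, fewer cells that express a gene and less RNA per cell cannot be told apart.

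Among the 48 members 19 rose, 12 fell and 17 did not pass, so that 64.6% were called in either direction, beside 44.9% of all genes. Higher members made up 39.6%, beside 19.8% of all genes, and lower members 25.0%, beside 25.0% of all genes. The median log2 difference of the members was 0.05 and that of all genes -0.01. A log2 difference of at least 0.5 in either direction was seen in 12 members (25.0%), 8 higher and 4 lower, beside 9.59% of all genes. Their adjusted p-values ran from 1.04e-06 for TNIP1 to 0.00182 for TNFSF15 (limma, n = 3 per group). The groups did not overlap in 36 members, 24 of them higher and 12 lower, beside 53.2% of all genes in either direction, 23.7% higher and 29.5% lower.

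**Figure D1:**
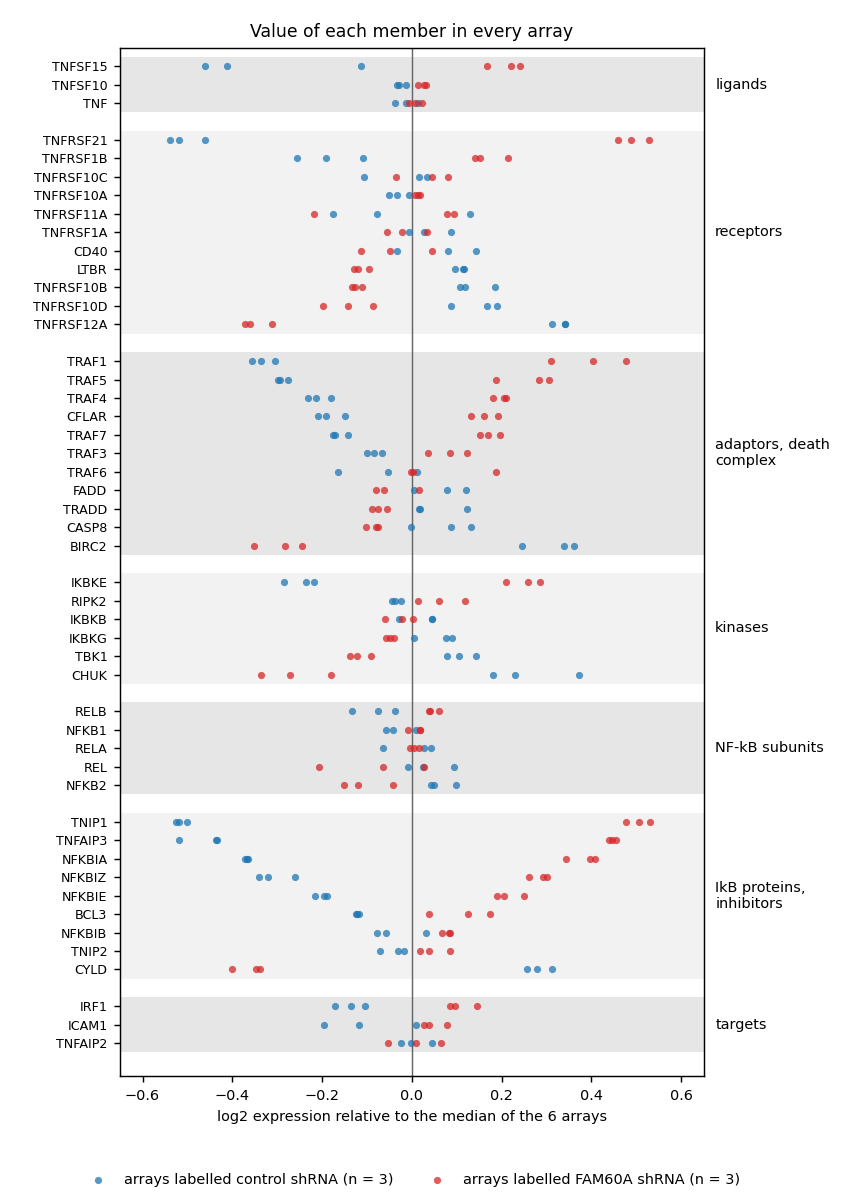
Log2 expression of each of the 48 members in the 6 arrays, relative to the median of the 6 arrays (x axis), with members (y axis) grouped by role and ordered by their difference. Points are single arrays, blue for the control shRNA label and red for the FAM60A shRNA label; TNIP1, TNFAIP3 and TNFRSF21 lie about as far below 0 in blue as above it in red because values are centred on the median of all 6 arrays, and TNFRSF12A, BIRC2, CHUK and CYLD show the opposite order.

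Of the 3 ligands, TNFSF15 rose (33.3%), beside 19.8% of all genes, and the others did not pass. TNF, the founding ligand of the family, had log2 values of -0.04, 0.01 and -0.01 in the control label and 0.01, -0.01 and 0.02 in the FAM60A label. The groups overlapped, the log2 difference was 0.02 ± 0.03 (SE), and the single probe set of TNF lay in the lowest level class, that of 2 to 4, which also holds 16 of 17 control tags without a target. TNFSF10, the death ligand TRAIL, stood at -0.01, -0.03 and -0.03 against 0.03, 0.03 and 0.01. Its groups were apart by a log2 difference of only 0.05 ± 0.03, which did not pass. TNFSF15, also called TL1A, stood at -0.41, -0.46 and -0.11 against 0.22, 0.17 and 0.24. The control arrays were uneven, with replicate 3 closest to the other label, and the log2 difference was 0.54 ± 0.09, a 1.45-fold higher signal (95% confidence interval 1.26 to 1.68). That rise came from a probe set of the lowest level class at 0.93, while the second probe set, of the class from 4 to 8, stood at 0.14 and did not pass. Without the lowest class the gene had 0.14 and lost its call.

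Receptors went both ways, with 2 of 11 higher (18.2%), 4 lower (36.4%) and 5 not passing, beside 19.8% and 25.0% of all genes. The median log2 difference of the receptors was -0.05, and it moved to -0.02 after cyclic loess, to -0.03 without probe sets named x_at or s_at and to 0.03 with the probe set of largest variance. It was -0.03 without control replicate 3 or FAM60A replicate 2. TNFRSF21, the death receptor DR6, rose most. It stood at -0.46, -0.52 and -0.54 in the control label and at 0.53, 0.46 and 0.49 in the FAM60A label. Every FAM60A array lay far above every control array, and the log2 difference of 1.0 ± 0.04 (SE, n = 3 per group) is a 2.0-fold higher signal (95% confidence interval 1.88 to 2.12). All 3 of its probe sets passed, between 0.90 and 1.05, and 2 of them had a level of 8 or more. TNFRSF1B, the second TNF receptor, rose by 0.35 ± 0.05, though only 1 of its 3 probe sets passed alone, at 0.66 and in the lowest level class. Without that class the difference of TNFRSF1B was 0.20 (limma, adjusted p = 0.0483).

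TNFRSF12A, the receptor of TWEAK, fell most among the receptors. Its values were 0.34, 0.31 and 0.34 in the control label and -0.36, -0.31 and -0.37 in the FAM60A label, with a narrow spread in both groups. The log2 difference of -0.68 ± 0.03 is a 1.60-fold lower signal (95% confidence interval 1.52 to 1.69), from 1 probe set with a level of 8 or more. TNFSF12, its ligand, fell too, by 0.30 on the log2 scale. The lymphotoxin beta receptor LTBR fell by 0.22, and both of its probe sets passed.

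The TRAIL receptors differed among themselves. TNFRSF10B, a receptor with a death domain, fell by 0.26 and the decoy receptor TNFRSF10D by 0.29, with all 3 and both probe sets past the threshold. TNFRSF10A, the other receptor with a death domain, had 0.04 and the decoy TNFRSF10C had 0.05, and neither passed. TNFRSF10C had probe sets on both sides of 0, from -0.18 to 0.21, and passed with the single probe set above the lowest class (0.21).

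TNFRSF1A, the main receptor of soluble TNF, did not pass. It stood at -0.01, 0.03 and 0.09 in the control label and at -0.02, -0.06 and 0.03 in the FAM60A label, and the groups overlapped. Its log2 difference was -0.05 ± 0.04, with a 95% confidence interval from -0.15 to 0.04. CD40 (-0.10) and TNFRSF11A, the receptor RANK (0.03), had all their probe sets in the lowest level class, where a change cannot be seen well, and neither passed.

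Among adaptors and proteins of the death complex, 6 of 11 rose (54.5%), 3 fell (27.3%) and 2 did not pass, beside 19.8% and 25.0% of all genes. The median log2 difference of these 11 was 0.16. TRAF proteins link receptors to kinases, and TRAF1, an NF-kB target itself, rose most. TRAF1 stood at -0.34, -0.30 and -0.36 against 0.31, 0.40 and 0.48, a wider spread in the FAM60A label than in the control label. Its log2 difference was 0.73 ± 0.05, a 1.66-fold higher signal (95% confidence interval 1.54 to 1.79), and its 3 probe sets, all past the threshold, ran from 0.44 to 1.03. TRAF5 stood at -0.29, -0.30 and -0.28 against 0.31, 0.28 and 0.19, a log2 difference of 0.55 ± 0.04 with both probe sets past the threshold. TRAF4 rose by 0.41, with 7 of 7 probe sets past the threshold, TRAF7 by 0.34 and TRAF3 by 0.16. The 2 probe sets of TRAF7 stood at 0.16 and 0.51, and without probe sets named x_at or s_at its difference was 0.16. Not 1 measured TRAF fell. TRAF6, the adaptor of interleukin and Toll-like receptors, had 0.13 and did not pass. Its replicate 1 was the lowest of the control label at -0.16 and the highest of the FAM60A label at 0.19.

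BIRC2, the ubiquitin ligase cIAP1 that sits with TRAF proteins at the receptor, fell. It stood at 0.36, 0.34 and 0.25 in the control label and at -0.25, -0.35 and -0.28 in the FAM60A label. The groups lay well apart, the log2 difference of -0.61 ± 0.05 is a 1.52-fold lower signal (95% confidence interval 1.42 to 1.64), and its 5 probe sets were close together, from -0.66 to -0.58. XIAP, a related inhibitor of caspases, fell by 0.24.

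The death branch held members that rose, fell or did not pass. CFLAR, which holds CASP8 in check, rose by 0.35 ± 0.03, with 8 of 9 probe sets past the threshold. CASP8, the starter caspase, fell by 0.16, but 2 of its 8 probe sets, at -0.51 and -0.54, carried this, while the other 6 ran from -0.15 to 0.06 and did not pass. FADD, which joins receptor and CASP8, had -0.11 and did not pass, but it passed without the lowest level class (-0.14). Of its 3 probe sets 1 passed alone, at -0.15. TRADD, the first adaptor at TNFRSF1A, fell by 0.13, with probe sets at -0.36 and 0.11. The calls of TRADD and CASP8 depended on single arrays, and that of TRADD also on the scaling, since it was lost under each of the 3 other scalings (-0.11, -0.10 and -0.11). CASP8 lost its call without control replicate 3 (-0.15) and without FAM60A replicate 2 (-0.15), and TRADD without control replicate 3 (-0.09) or any 1 array labelled FAM60A shRNA (-0.13 to -0.12).

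**Figure D2:**
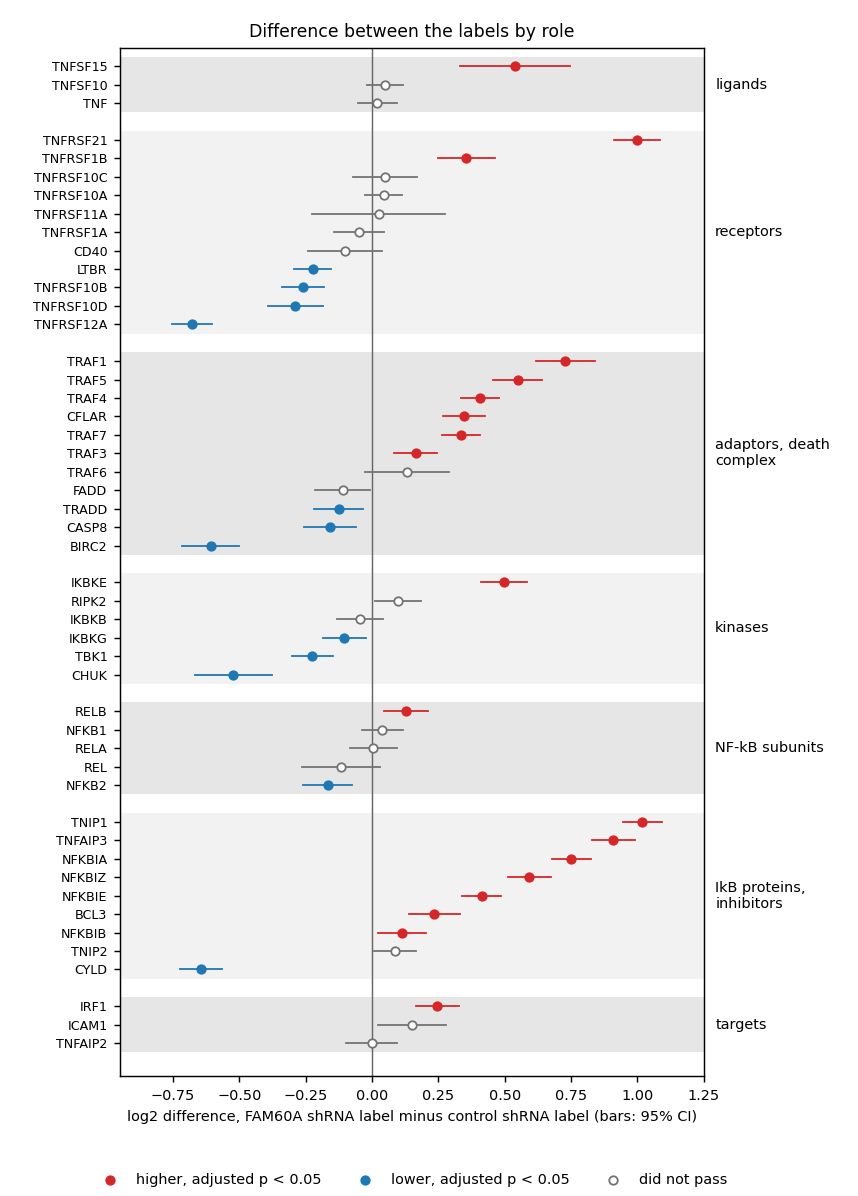
Log2 difference of each member, FAM60A shRNA label minus control shRNA label (x axis), by role (y axis), with bars for the 95% confidence interval of the limma fit (n = 3 per group). Filled points passed at an adjusted p under 0.05, red higher and blue lower, and open points did not. The IkB proteins and feedback inhibitors lie mostly to the right, from 1.02 for TNIP1 downwards, with CYLD alone at -0.65. The 5 NF-kB subunits stay between -0.17 and 0.13.

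Of 6 kinases or kinase subunits, 1 rose, 3 fell and 2 did not pass, with a median of -0.08. The IkB kinase is built of the catalytic subunits CHUK and IKBKB and the scaffold IKBKG. CHUK stood at 0.37, 0.23 and 0.18 in the control label and at -0.18, -0.34 and -0.27 in the FAM60A label. The groups were apart but each was wide, and the log2 difference of -0.52 ± 0.06 is a 1.44-fold lower signal (95% confidence interval 1.30 to 1.59) from 1 probe set. IKBKB had -0.05 ± 0.04, with 11 probe sets from -0.16 to 0.08, and did not pass. IKBKG fell by 0.11, which lost its call under 3 of 3 other scalings of the arrays (-0.09, -0.08 and -0.09), without probe sets named x_at or s_at (-0.12) and without any 1 array except control replicate 1.

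The kinases related to the IkB kinase went in opposite directions. IKBKE, which NF-kB can induce, stood at -0.29, -0.22 and -0.24 against 0.26, 0.21 and 0.29. The log2 difference was 0.50 ± 0.04, a 1.41-fold higher signal, and both probe sets passed, at 0.46 and 0.53. TBK1, its close relative, fell by 0.23 ± 0.03, with both probe sets past the threshold and a level of 8 or more. TANK and AZI2, adaptors of these kinases, fell as well, by 0.41 and 0.30 on the log2 scale. RIPK2, the kinase of the NOD receptors, had 0.10 and did not pass, but it passed under each of the 3 other scalings, with 0.11 to 0.13.

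The 5 NF-kB subunits showed the smallest differences among the role groups with 5 or more members, with a median of 0.004 and none beyond 0.17 in either direction. RELA, the main activating subunit, stood at -0.06, 0.03 and 0.04 in the control label and at 0.005, -0.003 and 0.02 in the FAM60A label. All values of the FAM60A label lay inside the control range, and the log2 difference was 0.004 ± 0.04. NFKB1, its usual partner, stood at -0.04, 0.01 and -0.06 against -0.01, 0.02 and 0.02. The groups overlapped, the difference was 0.04 ± 0.03, and its 95% confidence interval of -0.04 to 0.12 bounds a change at 1.08-fold. REL stood at 0.03, 0.09 and -0.01 against 0.03, -0.06 and -0.21, with FAM60A replicate 3 lowest, and the difference of -0.12 ± 0.06 did not pass.

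NFKB2 and RELB, the pair of the slower alternative pathway, moved slightly and apart. NFKB2 stood at 0.10, 0.05 and 0.04 in the control label and at -0.12, -0.15 and -0.04 in the FAM60A label, and it fell by 0.17 ± 0.04. RELB stood at -0.13, -0.08 and -0.04 against 0.04, 0.06 and 0.04, and it rose by 0.13 ± 0.04. RELB lost its call without control replicate 1 (0.10) or 2 (0.13), without FAM60A replicate 1 (0.13) or 2 (0.12), and when each gene was measured by its probe set of largest variance (0.13).

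Of the 9 IkB proteins and feedback inhibitors, 7 rose (77.8%), 1 fell (11.1%) and 1 did not pass, beside 19.8% and 25.0% of all genes. The median log2 difference of these 9 was 0.41. The per-array median of the group was -0.19, -0.19 and -0.21 in the control label and 0.21, 0.19 and 0.25 in the FAM60A label. NF-kB is known to induce TNIP1, TNFAIP3 and NFKBIA, and its part in their rise was not tested. Promoters of these 3 are shown because they rose most among members of this group and the target genes that hold the looser motif given below. The sequences give the 250 bases before a start site (RefSeq, GRCh38.p14), 5′ to 3′ on the gene's strand, with capitals for matches to the NF-kB consensus on either strand. TNIP1 lies on the minus strand and has 2 promoters in the table, of which the one with a match, at chr5:151081035-151081284, is shown. The promoter of TNFAIP3 is chr6:137867009-137867258 on the plus strand, and that of NFKBIA is chr14:35404750-35404999 on the minus strand.
TNIP1: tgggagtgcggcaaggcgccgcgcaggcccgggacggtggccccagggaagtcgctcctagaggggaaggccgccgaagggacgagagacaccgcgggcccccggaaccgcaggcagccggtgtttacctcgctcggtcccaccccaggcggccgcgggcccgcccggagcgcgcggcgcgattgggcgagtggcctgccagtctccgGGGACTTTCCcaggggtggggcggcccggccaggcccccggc
TNFAIP3: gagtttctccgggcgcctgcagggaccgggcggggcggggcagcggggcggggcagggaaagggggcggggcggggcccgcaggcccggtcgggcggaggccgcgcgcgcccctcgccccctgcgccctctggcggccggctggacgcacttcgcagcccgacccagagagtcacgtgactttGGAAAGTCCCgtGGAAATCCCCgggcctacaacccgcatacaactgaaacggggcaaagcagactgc
NFKBIA: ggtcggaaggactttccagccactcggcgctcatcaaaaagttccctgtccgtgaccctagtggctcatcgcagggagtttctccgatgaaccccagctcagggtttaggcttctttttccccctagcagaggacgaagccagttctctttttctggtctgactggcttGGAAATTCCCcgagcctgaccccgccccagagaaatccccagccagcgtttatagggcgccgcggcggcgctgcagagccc

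The TNIP1 match lies 42 to 33 bases before the start and that of NFKBIA 81 to 72 bases before it. TNFAIP3 has 2 matches, 67 to 58 and 55 to 46 bases before its start. A looser form of the motif, 3 G and 2 C with any 5 letters between them, searched on both strands, includes every match to the consensus and is common, being present in 54.4% of 35116 promoters of this length. It occurs in 33 of the 37 members matched by symbol to the promoter table and in 57.8% of all genes in it. The consensus is present in 5.21% of promoters and 6.28% of genes. It was found in 12 of the 37 members. By role, it was in 6 of 8 IkB proteins and feedback inhibitors, 3 of 4 NF-kB subunits, 2 of 10 adaptors, 1 of 3 targets and 0 of the other 12. Of members that rose 8 of 17 hold it, of those that fell 2 of 8, and of those that did not pass 2 of 12. The members were listed with results of this comparison known, and the consensus was chosen after values were seen. The split by call also overlaps with the roles, as 7 of the 9 IkB proteins and feedback inhibitors rose. It describes the list and is no test of the motif. Among all tested genes, 26.1% of 1115 with the consensus rose and 23.7% fell, beside 19.6% and 26.6% of 13310 without it. A match describes letters in this window and is no measure of binding.

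TNIP1, which works with TNFAIP3 to restrain NF-kB, rose most of all 48 members. It stood at -0.52, -0.50 and -0.53 in the control label and at 0.48, 0.53 and 0.51 in the FAM60A label. The spread within a label was a small part of the gap, and the log2 difference of 1.02 ± 0.03 (SE, n = 3 per group) is a 2.03-fold higher signal (95% confidence interval 1.93 to 2.13). All 8 of its probe sets passed, from 0.92 to 1.09, and it ranked 207 of 18132 genes by rise. TNFAIP3, the ubiquitin-editing enzyme that shuts down receptor complexes, stood at -0.44, -0.52 and -0.43 against 0.46, 0.45 and 0.44. The FAM60A arrays were nearly level with each other, and the log2 difference was 0.91 ± 0.035, a 1.88-fold higher signal (95% confidence interval 1.78 to 1.99), with both probe sets past the threshold.

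NFKBIA, the IkB alpha protein that binds NF-kB in the cytoplasm and is rebuilt after each pulse, stood at -0.37, -0.37 and -0.37 against 0.41, 0.40 and 0.34. Its log2 difference was 0.75 ± 0.03, a 1.68-fold higher signal (95% confidence interval 1.60 to 1.77), with 3 probe sets from 0.73 to 0.77, all with a level of 8 or more. NFKBIZ, a nuclear IkB protein that helps induce a subset of NF-kB targets, stood at -0.26, -0.32 and -0.34 against 0.26, 0.29 and 0.30. The groups were apart, with a log2 difference of 0.59 ± 0.03, a 1.51-fold higher signal. NFKBIE, the epsilon form of the cytoplasmic inhibitor, rose by 0.41 ± 0.03.

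The smaller rises of this role group were less firm. BCL3, a nuclear IkB protein, rose by 0.23, but 1 of its 4 probe sets, at 0.81, carried this while the others ran from -0.01 to 0.11, and without probe sets named x_at or s_at the gene had 0.07 and lost its call. NFKBIB, the beta form of IkB, rose by 0.11, with 1 of 4 probe sets past the threshold. It lost its call without any 1 array except control replicate 1 and without probe sets named x_at or s_at (0.06). TNIP2, a relative of TNIP1, had 0.09 and did not pass, but it passed after another quantile normalization (0.11) and after cyclic loess (0.11).

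CYLD, which trims ubiquitin chains from receptor complexes, was the 1 inhibitor that fell. It stood at 0.28, 0.31 and 0.26 in the control label and at -0.35, -0.40 and -0.34 in the FAM60A label. The log2 difference of -0.65 ± 0.03 is a 1.56-fold lower signal (95% confidence interval 1.48 to 1.65). Its 4 probe sets all lay below 0 but differed widely in size, from -1.10 to -0.16, and 3 passed. Of 10 other inhibitors of the pathway, 2 rose and 5 fell, beside 19.8% and 25.0% of all genes. COMMD1, which promotes the loss of RELA (-0.42), OTUD7B (-0.19) and the deubiquitinase OTULIN (-0.14) were lower. TAX1BP1, a partner of TNFAIP3, stood at -0.13. NFKBID fell too (-0.16), and ITCH (0.12) and IRAK3 (0.11) rose, each with only 1 probe set that passed alone. The 4 probe sets of ITCH ran from -0.11 to 0.51, and all 4 of IRAK3 lay in the lowest level class.

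**Figure D3:**
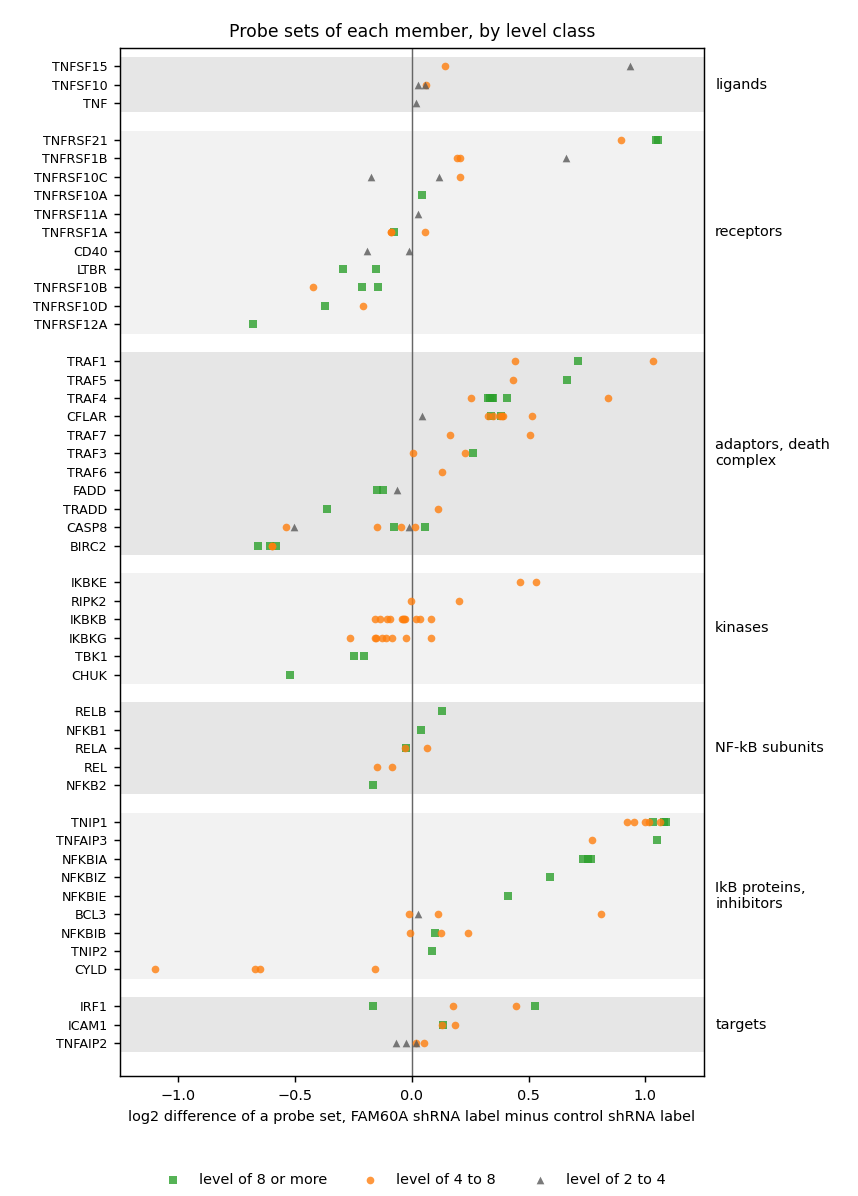
Log2 difference of each of the 150 probe sets of the members, FAM60A shRNA label minus control shRNA label (x axis), by member and role (y axis), marked by the level class of the probe set before centring. Probe sets of TNIP1 (0.92 to 1.09), NFKBIA (0.73 to 0.77) and BIRC2 (-0.66 to -0.58) lie close together, whereas those of CYLD (-1.10 to -0.16), BCL3 (-0.01 to 0.81) and TNFSF15 (0.14 and 0.93) are spread.

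Of the 3 measured target genes, only IRF1 rose (33.3%), beside 19.8% of all genes. IRF1, a transcription factor of the interferon response, stood at -0.14, -0.17 and -0.10 against 0.09, 0.10 and 0.15, a log2 difference of 0.25 ± 0.03. Of its 4 probe sets 3 rose, by 0.18 to 0.53, and the fourth stood at -0.17 and did not pass. ICAM1, the adhesion molecule of inflamed cells, stood at -0.20, 0.01 and -0.12 against 0.04, 0.08 and 0.03. Its control arrays were spread widely, replicate 2 lay close to the other label, and the difference of 0.15 ± 0.05 did not pass. It did pass without control replicate 2 (0.20), under each of the 3 other scalings (0.16 to 0.17) and without the lowest level class (0.15). TNFAIP2 had a difference of -0.001 ± 0.04, with 3 of 5 probe sets in the lowest level class.

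Probe sets of a gene often differed in size or sign. Of 36 members with several probe sets, 12 had them on both sides of 0 (33.3%), beside 41.9% of all genes with several. In 0 of the 36 did some pass the threshold upwards and others downwards, beside 3.72% of all such genes. Of the members called, 25 had several probe sets, and in 19 of these (76.0%) all lay on the same side, beside 82.2% of all called genes with several. Of the 150 probe sets, 54 rose and 28 fell, beside 18.4% and 23.0% of all probe sets, of which 41.4% were called in either direction. Measured by the probe set of largest variance alone, 13 called members had a log2 difference over 1.5 times as large, among them CYLD (-1.10), TRAF4 (0.84), IRF1 (0.53) and TNFRSF10B (-0.42). By level class, 24 of 31 members with a probe set of 8 or more were called (77.4%), beside 67.0% of all genes with one. Of the 17 members without one 7 were called (41.2%), beside 32.1% of all genes without one.

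Genes of the pathway beyond the 48 members were counted in 5 further lists. Among all genes 19.8% rose and 25.0% fell. Of 17 other receptors, 3 rose (17.6%) and 0 fell. TNFRSF9, the co-stimulatory receptor 4-1BB, had the largest difference of them at 1.85 ± 0.10, followed by TNFRSF19 (0.69) and TNFRSF25 (0.30), and the probe set of TNFRSF9 has no readable level class. Of 13 other ligands, 3 rose (23.1%) and 1 fell (7.69%), namely LTB (0.26), FASLG (0.23), TNFSF4 (0.16) and TNFSF12 (-0.30). In each of LTB, FASLG and TNFSF4 only 1 of 2 probe sets passed alone, and both probe sets of FASLG lay in the lowest level class. Of 24 other adaptors, ubiquitin enzymes and kinases, 9 rose (37.5%) and 5 fell (20.8%). MLKL, which carries out necroptosis, rose by 1.15 ± 0.04 and IRAK2 by 0.50. The 2 probe sets of IRAK2 stood at 0.04 and 0.97, and only 1 passed. MYD88, the adaptor of Toll-like receptors, rose by 0.44 and RBCK1, a part of the linear ubiquitin ligase, by 0.37. The other parts of that ligase, RNF31 (-0.09) and SHARPIN (0.06), did not pass.

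Of 25 other NF-kB target genes, 14 rose and 2 fell, beside 19.8% and 25.0% of all genes, and their median log2 difference was 0.26. The 4 with the smallest p were CCL20 (2.93), CXCL3 (2.84), LCN2 (1.60), which binds bacterial iron carriers, and CXCL8 (1.27). The probe sets of CCL20 and CXCL3 have no readable level class. In 5 of the 25 genes every probe set lay in the lowest level class. PLAUR, the urokinase receptor, fell by 0.38 and the proteoglycan SDC4 by 0.21. This list was drawn up with earlier results for some of its chemokines known.

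**Figure D4:**
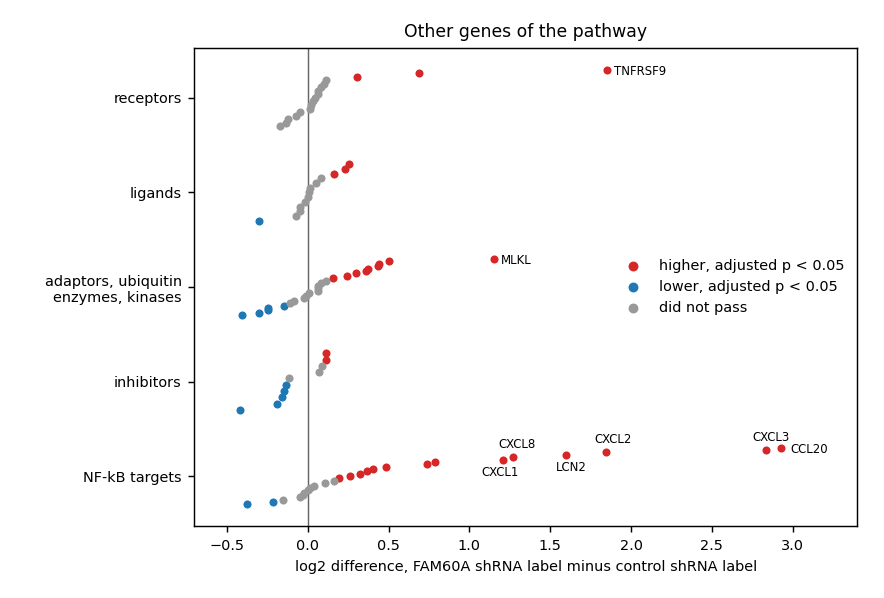
Log2 difference, FAM60A shRNA label minus control shRNA label (x axis), of 89 other pathway genes in 5 lists (y axis), each point 1 gene, stacked by size within its list. Red points rose and blue points fell at an adjusted p under 0.05, and grey points did not pass; among the NF-kB targets 14 of 25 are red, up to 2.93 for CCL20, whereas 14 of 17 receptors are grey.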

How the data were processed

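The authors deposited log2 values for 49395 probe sets on 6 arrays, summarised with RMA per the submitters' processing notes, and the program behind this is not given in the sources. Each probe set had a median of 0 (largest deviation 5e-07), so a value is a difference from the median array. Base 2 is assumed, as RMA uses it. Of the probe sets, 44994 had 1 symbol, 1832 several and 2569 none, and 102 control probe sets were left out. Single-precision rounding steps gave the level class before centring, checked on simulated data. Samples were grouped by title. Gene means were fitted in limma 3.58.1 (R 4.3.3; lmFit, eBayes), with Benjamini-Hochberg adjustment over 18132 genes and a threshold of 0.05, tested on simulated data. Named with values for each array were members with a log2 difference of at least 0.5, the 2 largest of each role group, all NF-kB subunits, TNF and TNFRSF1A, and of other lists up to 4 genes with the smallest p; other genes of those lists were chosen after their values were seen, as was the NF-kB consensus. Members and lists were chosen with earlier results of these data known. Alternatives were 3 other scalings, 3 choices of probe sets, a robust prior, the replicate number as a block and leaving out each array. The number of arrays limits the precision.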

Additional observations from a re-analysis of the deposited data

How the results depend on the processing

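The counts of members called stayed within 1.5 times under all 14 alternatives, and all 31 members called kept their direction in them, 24 also their call (15 higher, 9 lower); TNFRSF12A, TNFRSF21, TNIP1, TNFAIP3, NFKBIA, BIRC2, CHUK and CYLD were among these. The other 7 were TNFSF15, TRADD, CASP8, IKBKG, RELB, NFKBIB and BCL3. Leaving out each array in turn gave 17 to 18 members higher, 9 to 13 lower, 7365 to 7700 genes called and a SINHCAF difference of 1.22 to 1.27. The role medians then ran from 0.045 to 0.055 for ligands, -0.075 to -0.025 for receptors, 0.16 to 0.19 for adaptors, -0.083 to -0.062 for kinases, -0.029 to 0.025 for NF-kB subunits, 0.40 to 0.43 for inhibitors and 0.10 to 0.20 for targets. Ligands had a median of 0.068 after quantile normalization, 0.073 after cyclic loess, 0.062 with arrays centred on their median, 0.063 with the probe set of largest variance, 0.041 without x_at and s_at probe sets and 0.10 without the lowest level class. Cyclic loess gave -0.051 for kinases, 0.030 for NF-kB subunits and 0.44 for inhibitors. The probe set of largest variance gave 0.026 for receptors, 0.26 for adaptors, 0.039 for NF-kB subunits and 0.59 for inhibitors, and omitting x_at and s_at probe sets gave 0.039 for NF-kB subunits. Members that changed sign had passed in no setting. They were TNFAIP2 with quantile normalization (0.014), cyclic loess (0.025), median centring (0.012), no lowest class (0.035) and without control replicate 2 (0.018) or FAM60A replicate 1 (0.029; range over single arrays left out -0.030 to 0.029), TNFRSF1A with the probe set of largest variance and without x_at and s_at probe sets (0.056 in both), IKBKB with the former (0.080), TNFRSF11A without control replicate 1 (-0.042) or FAM60A replicate 1 (-0.021) or 3 (-0.029; range -0.042 to 0.13), and RELA without control replicate 1 (-0.029) or FAM60A replicate 3 (-0.0013). The cause was not tested. Same-numbered arrays deviated together with correlations of 0.16, 0.059 and 0.078, not all above 0.1, so the numbers were not taken to pair samples, although every array correlated best with its own number. The replicate block gave 19 members higher, 10 lower and 8170 genes called; TRADD (-0.13), IKBKG (-0.11) and NFKBIB (0.11) then lost their call and ICAM1 (0.15) gained 1. Genes in the lowest level class can hide a fall.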
